A study of Saccharomyces cerevisiae with 41 samples.

Results

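The spliceosomal snRNAs are the small nuclear RNAs at the core of the splicing machinery. They were taken as the features named snR19 (U1), LSR1 (U2), snR14 (U4), snR7-L and snR7-S (the long and short forms of U5) and snR6 (U6), which are 6 of the 11587 features counted. Budding yeast (Saccharomyces cerevisiae, vegetative cells, labelled as BY4741) grew at 25 °C and was then held at 37 °C for 90 min. RNA was selected with oligo d(T) in csl4-ph (3 libraries), enp1-1 (2), srm1-ts (2) and control cells (3). It was depleted of ribosomal RNA in csl4-ph (3), enp1-1 (2), srm1-ts (2), dis3-1 (2), the rrp6 deletion (2) and control cells (2). Single 3′ tags were read in csl4-ph, enp1-1 and control cells, each with a Pab1-GFP vector (3) or an empty vector (3). The strains are called csl4, enp1, srm1, dis3, rrp6 deletion and control here. CSL4, DIS3 and RRP6 encode parts of the RNA exosome, ENP1 a ribosome assembly factor and SRM1 the exchange factor of the Ran GTPase. The labels name no separate cultures, so the p-values measure the spread between these libraries, which may be technical.

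U1 pairs with the 5′ splice site and U2 with the branch site. U4 carries U6 into the spliceosome in a particle with U5, and U6 then forms part of the catalytic centre while U5 holds the exons. U1, U2, U4 and U5 are made by RNA polymerase II, bind a ring of Sm proteins and get their 3′ ends from cleavage by the RNase III Rnt1 and trimming by exonucleases, the exosome among them. U6 is made by RNA polymerase III, ends in a run of uridines and binds the La protein Lhp1 and then the Lsm2-8 ring. Mature snRNAs carry no long poly(A) tail, whereas the TRAMP complex can add short ones to RNAs on their way to the exosome.

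Both U5 forms come from 1 locus, VII:939459-939672 on the minus strand (sacCer3, R64). The short form ends at position 939494, so it lies wholly inside the long form, which goes on for 35 more bases. The sequence below is shown because the comparison of the forms rests on that tail, in capitals, while reads from the 179 shared bases are divided between the forms by estimation. The tail holds no run of more than 2 A.
U5 long form: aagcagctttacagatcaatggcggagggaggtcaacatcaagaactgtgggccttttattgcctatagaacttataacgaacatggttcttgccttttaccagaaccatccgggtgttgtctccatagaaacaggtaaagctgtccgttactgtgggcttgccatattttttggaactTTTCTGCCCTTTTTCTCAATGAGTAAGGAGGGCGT

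U6 (XII:366235-366346, plus strand) is shown whole because its level lay above control in every mutant library of ribo-depleted RNA. Capitals mark ACAGAGA, the stretch that pairs with the 5′ splice site, once on the sense strand and not on the other. The same letters on either strand were in 1.54% of genome windows of 112 bases.
U6: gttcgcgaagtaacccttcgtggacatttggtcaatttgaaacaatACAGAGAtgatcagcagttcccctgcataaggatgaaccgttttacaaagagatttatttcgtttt

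U2 (II:680688-681862, minus strand) is shown around its longest run of A because its recovery with oligo d(T) is described. The run is 7 bases long, starts at base 908 of 1175 and is in capitals. The longest runs were 5 bases in U1 (XIV:230105-230672, minus strand) and 3 in U4 (V:167427-167586, minus strand), U5 and U6.
U2, around its longest A run: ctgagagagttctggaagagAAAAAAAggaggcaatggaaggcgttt

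All 6 features had the same span as their R64 entries, and all sequences are those of R64. U1 shares 559 bases with the transcript feature NUT1342, and U4 shares 149 bases with NUT0965 and all 160 with 5F-75. The strand of these 3 features is not given in the sources used here, so they may lie on the same strand as the snRNA or on the other. U2 and U6 overlap no other counted feature.

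Libraries held 15589670 to 33251600 estimated counts in oligo d(T) RNA, 12795066 to 32142495 in ribo-depleted RNA and 1458382 to 3027707 in 3′ tags. Ribosomal RNA took 57.4% to 78.4% of the 3′ tag counts, which left 472601 to 837813 counts outside it. In the other libraries it took at most 7.63%. RRP6 stood at 39.9 and 38.1 CPM, a level relative to the total of its library, in the libraries of the rrp6 deletion and at 190 and 180 CPM in control, so it was lower but above 0. The other targeted genes carry labelled alleles whose counts do not check the label. Markers of the strain background differed between strains labelled alike. LYS2 averaged 651, 682, 395 and 456 CPM in ribo-depleted enp1, srm1, dis3 and rrp6 deletion, against 0.0 in csl4 and 0.5 in control. STE3, a gene of alpha cells, averaged 2.4, 13.5, 7.3 and 6.6 CPM in the same 4 strains, 121 in csl4 and 240 in control. STE2, a gene of a cells, averaged 426, 62.7 and 352 CPM in enp1, srm1 and dis3, but 8.71 in the rrp6 deletion, 14.4 in csl4 and 7.37 in control, so that these 4 strains were not alike. For enp1, srm1, dis3 and the rrp6 deletion the mutation and the background therefore cannot be told apart, while csl4 was near control in LYS2 (called lower, at 0 in all its libraries) and below it in STE3. Of the other background markers, csl4 was below control in MET17 (91.2 against 539 CPM) and MF(ALPHA)1 (225 against 680). It was above control in MFA1 (3.00 against 0.24). The other mutants averaged at most 0.72 CPM of MET17 and 5.36 of MF(ALPHA)1. Whether csl4 and control share a background was not tested. One library titled as ribo-depleted, replicate 1 of csl4, carries a protocol text for oligo d(T) selection. The snRNAs took 2.13% of its counts, against 2.14% and 2.09% in replicates 2 and 3. In oligo d(T) csl4 they took 0.0266% to 0.0293%. Without replicate 1 U4 was also called lower in csl4 (log2 fold change -0.54, adjusted p = 0.0343), the other 5 members kept their calls, and U6 was at 1.83, long U5 at 0.49, short U5 at -1.64 and the U5 log2 ratio at 2.13.

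The members together took 1.46% to 3.33% of counts in the groups of ribo-depleted RNA, 0.0066% to 0.0276% in oligo d(T) RNA and 0.333% to 0.757% in 3′ tags. The tag shares are of counts that include ribosomal RNA, which took 67.1% to 78.4% in control, 57.4% to 74.3% in csl4 and 61.2% to 70.9% in enp1. Per kilobase, the order of levels in ribo-depleted control RNA was U2 (15334 ± 328 CPM per kilobase, SD, n = 2), U1 (14482 ± 879), short U5 (4066 ± 165), long U5 (234 ± 16.4), U4 (97.8 ± 3.05) and U6 (25.2 ± 5.33). U2 and U1 differed by less than the summed spread of their libraries, and the other neighbours by more. U4, U5 and U6 are short RNAs, and how well short RNAs entered the libraries was not tested.

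**Figure D1:**
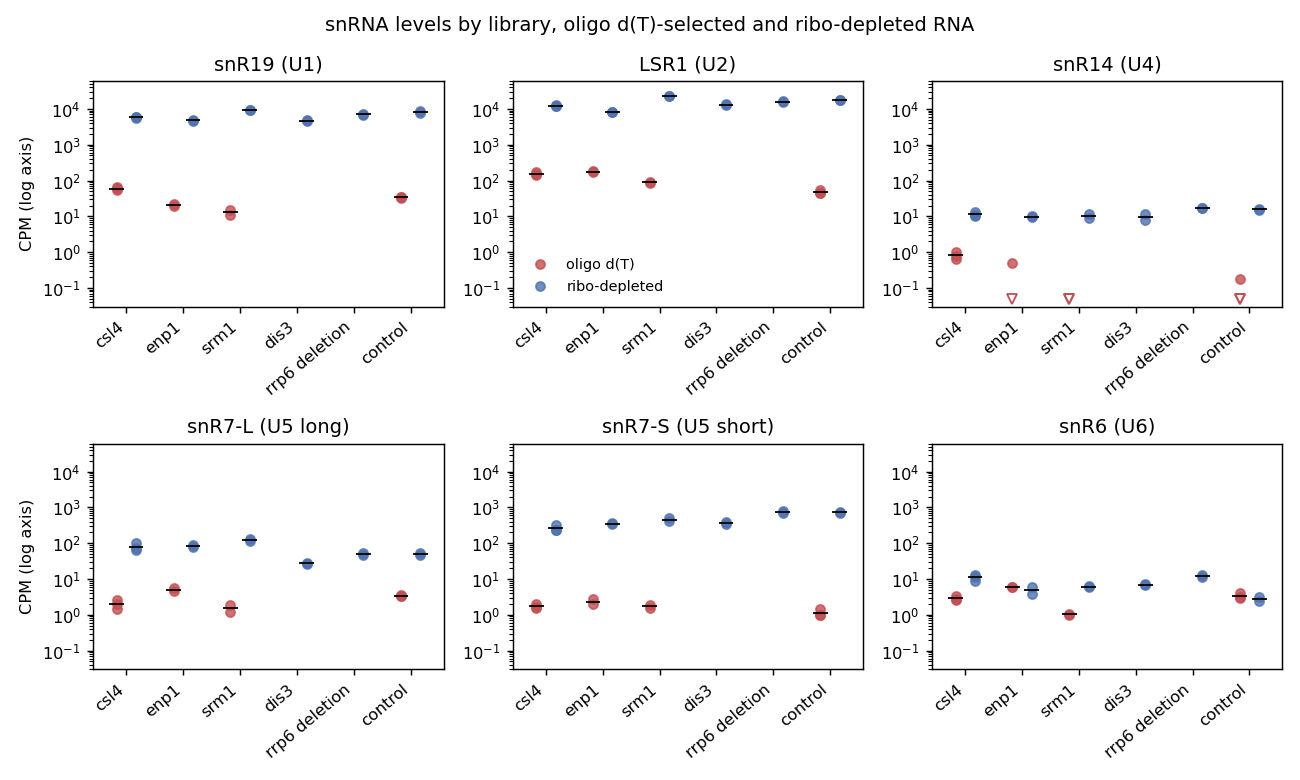
CPM of each snRNA by library on a log axis, in oligo d(T)-selected (red) and ribo-depleted (blue) RNA, with black lines at group means and open triangles for libraries at 0. U1, U2 and both U5 forms lie far lower in oligo d(T) RNA in every strain, while U6 in enp1 and control lies at like levels in both.

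The share of U5 counted as the long form was higher in ribo-depleted csl4, enp1 and srm1 than in control. It was 24.1%, 24.5% and 21.8% in the csl4 libraries, 20.2% and 18.7% in enp1, 20.5% and 22.1% in srm1, and 5.97% and 6.93% in control. The dis3 libraries had 6.38% and 7.74% and the rrp6 deletion libraries 6.19% and 6.33%. The libraries of csl4, enp1 and srm1 all lay above those of the other 3 strains with no overlap. The groups differed in the log2 ratio of long to short (exact permutation test over all groups, p = 0.000696). Single pairs are too small to test firmly: csl4 differed from control by 2.15 on the log2 scale (exact p = 0.1, the smallest possible), enp1 by 1.81 and srm1 by 1.97 (exact p = 0.333 each, the smallest possible). The differences of dis3 (0.14) and the rrp6 deletion (-0.04) were small beside these. A ratio within a library does not depend on the scaling between libraries.

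Behind the shift in ribo-depleted RNA were opposite changes of the forms. Long U5 had 100, 75.04 and 65.3 CPM in csl4, 91.0 and 79.0 in enp1, 130 and 116 in srm1, and 47.6 and 52.6 in control. Every library of the 3 mutants was above control. Short U5 had 314, 231 and 235 CPM in csl4, 358 and 343 in enp1, 505 and 408 in srm1, and 749 and 707 in control, so that every mutant library was below. In edgeR's quasi-likelihood test, with Benjamini-Hochberg adjustment over all features, long U5 rose in csl4 (log2 fold change 0.68 ± 0.17, SE; adjusted p = 0.00534), enp1 (0.77 ± 0.18; adjusted p = 0.00411) and srm1 (1.30 ± 0.18; adjusted p = 0.00012). Short U5 fell by 1.48, 1.05 and 0.67 on the log2 scale in csl4, enp1 and srm1, with adjusted p of 5.08e-06, 0.000146 and 0.00236. In dis3 both forms fell: the long one, at 25.9 and 28.8 CPM, by 0.87, and the short one, at 380 and 343 CPM, by 1.01. With scaling on open reading frames (ORFs) the fall of short U5 in srm1 (-0.34, adjusted p = 0.053; -0.36 and 0.0838 without srm1 replicate 2) and of long U5 in dis3 (-0.45, adjusted p = 0.0725) was no longer called. In the rrp6 deletion the long form had 51.7 and 48.2 CPM and the short form 783 and 714 CPM, log2 differences from control of 0.00 ± 0.19 and 0.04 ± 0.15 that were not called. With both rows summed, an alternative chosen after seeing the data, total U5 in ribo-depleted RNA fell by 1.19 in csl4 (adjusted p = 2.68e-05), 0.84 in enp1, 0.43 in srm1 and 1.00 in dis3. The sum was fitted with scaling on all features only, and scaling on ORFs moved the median of all features by 0.33 in srm1. In oligo d(T) RNA total U5 was called higher in enp1 (0.70; edgeR, adjusted p = 0.0124) and was not called in csl4 (-0.27) or srm1 (-0.47). In 3′ tags it was called higher in csl4 and enp1 with both vectors (3.19 to 4.32), over control libraries of 2 to 11 U5 counts.

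In oligo d(T) RNA the long form made up most of the few U5 counts of control and less of those in csl4 and srm1. Its share was 61.4%, 46.6% and 50.4% in csl4, 69.9% and 67.3% in enp1, 55.2% and 37.95% in srm1, and 69.9%, 77.7% and 79.7% in control. All csl4 and srm1 libraries lay below control, whereas enp1 overlapped it narrowly. Long U5 had 2.52, 1.49 and 2.03 CPM in csl4, 4.55 and 5.60 in enp1, 1.92 and 1.17 in srm1, and 3.30, 3.32 and 3.61 in control. It was called lower in csl4 (-0.76 ± 0.29, adjusted p = 0.0397) and srm1 (-1.14 ± 0.33, adjusted p = 0.0128), and the call in csl4 was lost with RLE scaling (adjusted p = 0.0541), with scaling on ORFs (0.218), in the compared groups alone (0.0677) and without any 1 of 5 libraries (0.0804 to 0.124). The call in srm1 was lost without srm1 replicate 2 (-0.82, adjusted p = 0.102). In enp1 long U5 was not called (0.57), except in the compared groups alone (adjusted p = 0.0384) and with scaling on ORFs (0.0339). Short U5 had 1.57, 1.69 and 2.03 CPM in csl4, 1.95 and 2.72 in enp1 and 1.57 and 1.91 in srm1. Control had 1.47, 0.996 and 0.968 CPM, below every mutant library. In enp1 short U5 was called higher (1.02 ± 0.35; edgeR, adjusted p = 0.0251), a call lost with the replicate block. It was not called in csl4 (0.62 ± 0.32) or srm1 (0.60 ± 0.35). The shares rest on 64 to 91 U5 counts a library in csl4, 230 to 248 in enp1, 92 to 100 in srm1 and 52 to 65 in control. The groups differed (exact permutation test over all groups, p = 0.0117), with log2 ratios below control by 1.46 in csl4 (exact p = 0.1, the smallest possible), 0.50 in enp1 (exact p = 0.3) and 1.83 in srm1 (exact p = 0.1, the smallest possible).

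In csl4 and srm1 the long share was above control in ribo-depleted RNA and below it in oligo d(T) RNA, whereas in enp1 it was above control in ribo-depleted RNA and overlapped it in oligo d(T) RNA. Averaged over both, the difference from control was 0.35 in csl4, 0.66 in enp1 and 0.07 in srm1 (exact permutation p = 0.61, 0.3 and 0.967). A test of the difference between the fractions was added after these directions were seen. The difference was -3.61 in csl4 (exact permutation p = 0.005, the smallest possible), -2.32 in enp1 (exact p = 0.05) and -3.80 in srm1 (exact p = 0.0167, the smallest possible). Labels were permuted within each fraction, so these p-values are for no strain difference in either fraction, not for equal differences in both. All csl4 and srm1 libraries had already been seen apart from control, in opposite directions.

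**Figure D2:**
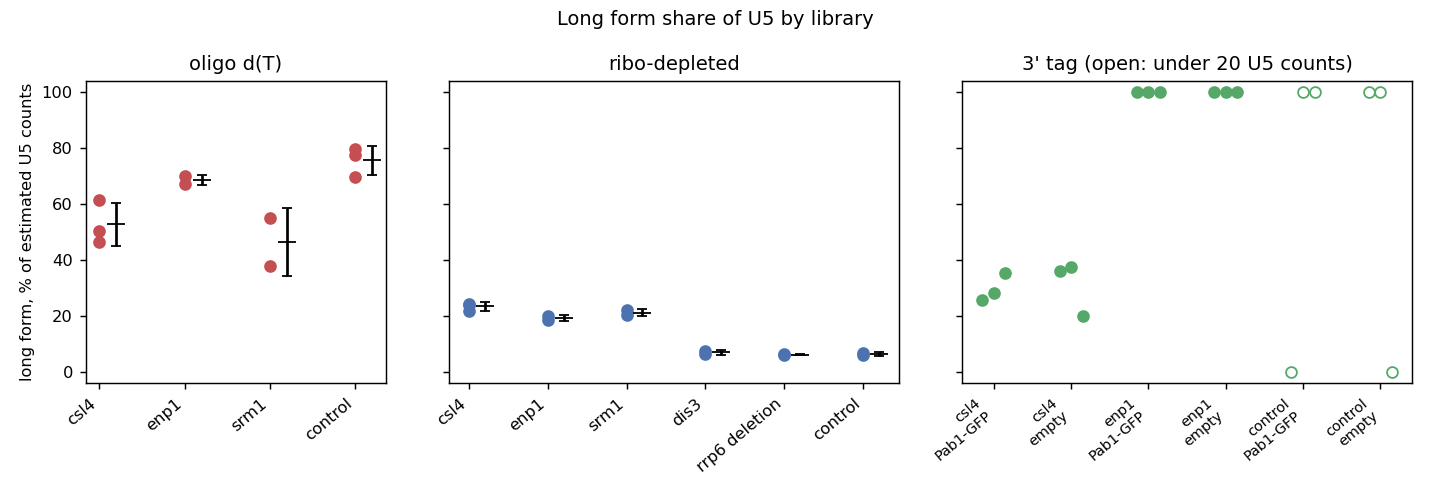
Percent of U5 counts assigned to the long form, by library, in oligo d(T), ribo-depleted and 3′ tag RNA, with group means and SD beside the points of the first 2 panels. The 7 ribo-depleted libraries of csl4, enp1 and srm1 sit at 18.7% to 24.5%, above the 6 of dis3, rrp6 deletion and control, and the 6 tag libraries of enp1 are at 100%.

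The 3′ tags, which come from sites that an oligo d(T) primer can reach, separated csl4 from enp1 by the U5 form to which counts were assigned. Such a site may be a tail or a run of A inside an RNA, which were not told apart. Short U5 had 50.8, 60.5 and 30.7 CPM in csl4 with the Pab1-GFP vector and 50.0, 45.2 and 47.8 with the empty vector, and 0 in all 6 enp1 libraries. Long U5 had 17.4, 23.8 and 16.6 CPM in csl4 with the Pab1-GFP vector and 28.3, 27.0 and 12.1 with the empty vector, against 35.7, 31.5 and 24.7 CPM and 63.6, 56.8 and 53.2 CPM in enp1. With either vector every csl4 library was below every enp1 library in long U5 and above it in short U5. Control held at most 11 counts of the long and 4 of the short form in a library. Reads that fit both forms were divided by estimation, and each control library was assigned wholly to 1 form. Whether the 0 of enp1 comes from that division was not tested. For counting error alone, a count of 0 allows up to 3 counts. Against that floor short U5 was at least 35.5-fold higher in csl4 than in enp1 with the Pab1-GFP vector (edgeR, adjusted p = 9.27e-06). With the empty vector it was at least 37.4-fold higher (edgeR, adjusted p = 1.65e-05). Neither bound covers the division between the forms. Long U5 was not called between them with all groups in the fit, at log2 differences of -0.66 ± 0.53 with the Pab1-GFP vector and -1.37 ± 0.52 with the empty vector. In the compared groups alone edgeR called it lower in csl4 with both (-0.82, adjusted p = 0.0435, and -1.49, adjusted p = 0.00865), and DESeq2 called it with the empty vector (adjusted p = 0.0231). This comparison was added after the 0 counts were seen. It called 3 members with the Pab1-GFP vector and 4 with the empty vector, where 35.5% and 16% of all features tested were called. Beside short U5, U4 and U1 were called higher in csl4 with both vectors, and U6 was called lower with the empty vector (log2 fold change -1.88 ± 0.55, adjusted p = 0.0316). The U6 call was lost with the replicate block (adjusted p = 0.0546) and without any 1 of 4 libraries (0.0717 to 0.171). The U4 call with the empty vector was lost with no filter on low counts (adjusted p = 0.0675), with the replicate block (0.0655) and without any 1 of the 6 libraries (0.0641 to 0.193). The U1 call with the Pab1-GFP vector was lost in the compared groups alone (adjusted p = 0.233), with no filter (0.106) and without any 1 of 3 libraries (0.144 to 0.158), and with the empty vector without either of 2 (0.0754 and 0.0782).

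Against control the tags of U4, long U5 and U6 were called higher in csl4 and in enp1 with both vectors. The U4 call in enp1 with the Pab1-GFP vector was lost without control replicate 3 (adjusted p = 0.0681) or enp1 replicate 3 (0.0663). U4, which base-pairs with U6, had 31, 29.3 and 21.8 CPM in csl4 with the Pab1-GFP vector and 9.69, 3.69 and 11.4 CPM in enp1, against 2.34, 1.94 and 0 CPM in control. With the empty vector U4 had 36.6, 50.3 and 31.6 CPM in csl4 and 18.7, 10.3 and 18.9 CPM in enp1, against 0, 0.614 and 0 CPM in control. The U4 groups did not overlap with either vector. U6 tags were 3.88, 4.30 and 2.13 CPM in csl4 and 12.1, 7.04 and 4.71 CPM in enp1 with the Pab1-GFP vector, against 0, 0 and 0.503 CPM in control. With the empty vector U6 was at 0 in control, so that it was at least 1.85-fold higher in csl4 and at least 6.95-fold higher in enp1.

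csl4 called 5 members with the Pab1-GFP vector, where 51.4% of features were called, and 6 with the empty vector, where 47.5% were. enp1 called 3 with each vector, against 13.3% of features with the Pab1-GFP vector and 38.9% with the empty vector. The member not called in csl4 was U2 with the Pab1-GFP vector (log2 fold change 0.38 ± 0.18, adjusted p = 0.0914), which DESeq2 (0.0241), RLE scaling (0.0375) and scaling on ORFs (0.0257) called higher. U2 and U1 had the highest tag levels of the members. With the empty vector U2 averaged 6259 CPM in csl4, 5511 in enp1 and 4430 in control, and U1 averaged 563, 336 and 344 CPM. The csl4 calls of U1 and U2 depended on single libraries. Without any 1 library 4 members were called with the Pab1-GFP vector and 4 to 6 with the empty vector. U1 with the Pab1-GFP vector (0.51) was lost without any 1 of the 6 libraries (adjusted p = 0.055 to 0.354) and with no filter (0.14), and with the empty vector (0.71) without control replicate 1 (0.149) or 2 (0.172). U2 with the empty vector (0.50) was lost without any 1 of 5 libraries (adjusted p = 0.0563 to 0.374) and with no filter (0.106). In enp1, U1 and U2 tags were not called with either vector (log2 fold changes from -0.07 to 0.31), except for U2 with the empty vector with scaling on ORFs (0.51, adjusted p = 0.0446). The vector itself called 0 members in csl4, enp1 and control in edgeR (0 members also at an unadjusted p under 0.05), where 0.408%, 6.66% and 0.393% of features were called, and DESeq2 also called 0.

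**Figure D3:**
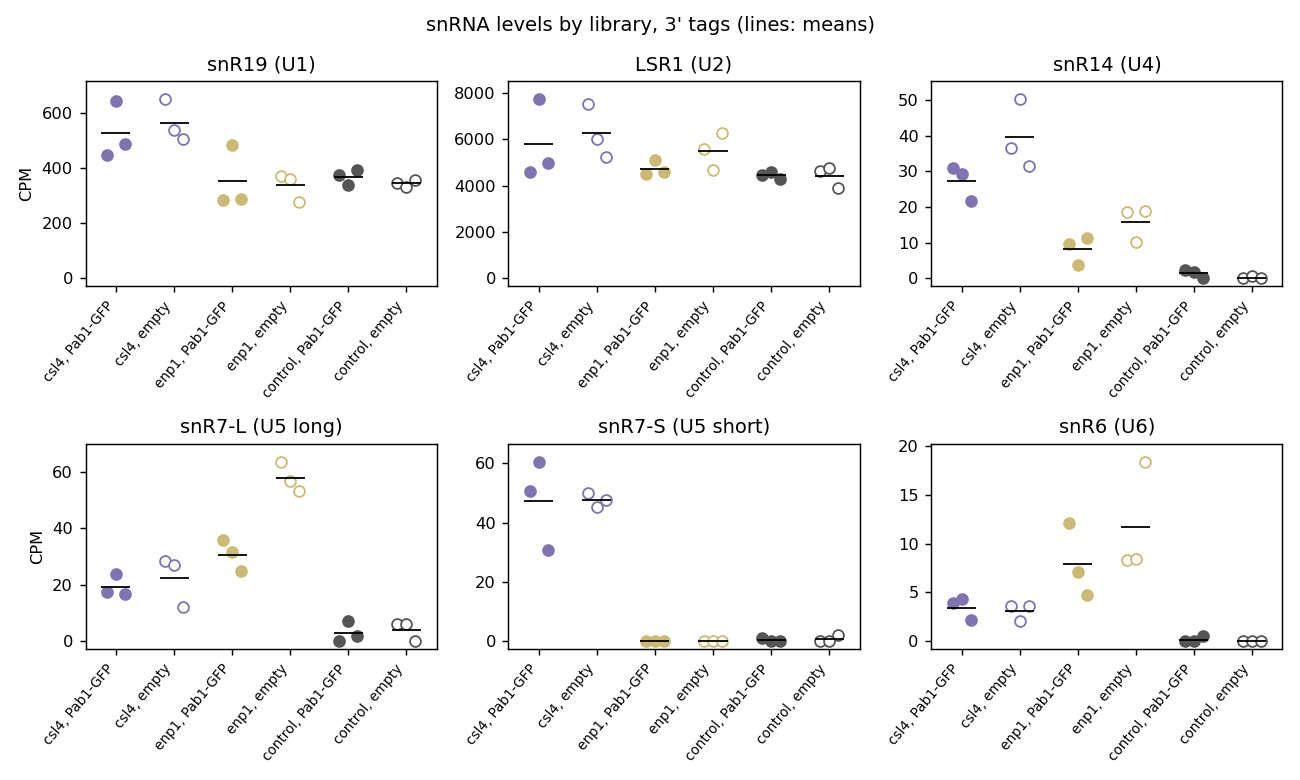
CPM of each snRNA in the 3′ tag libraries, csl4 (purple), enp1 (yellow) and control (grey), filled for the Pab1-GFP vector and open for the empty vector, with lines at means. Short U5 is seen in csl4 and is at 0 in enp1, while U6 is highest in enp1.

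U6 was called higher in ribo-depleted RNA of all 5 mutants, which share the 2 control libraries. It had 13.2, 11.3 and 8.90 CPM in csl4, 6.12 and 3.89 in enp1, 6.02 and 6.21 in srm1, 7.17 and 6.79 in dis3, 12.96 and 11.2 in the rrp6 deletion, and 3.25 and 2.40 in control. No mutant library overlapped control, whose values rest on 38 and 23 counts. The log2 fold changes were 1.97 ± 0.26 in csl4 (edgeR, adjusted p = 6.91e-05), 0.82 ± 0.27 in enp1 (adjusted p = 0.0199), 1.11 ± 0.27 in srm1 (adjusted p = 0.00395), 1.30 ± 0.27 in dis3 (adjusted p = 0.00187) and 2.09 ± 0.27 in the rrp6 deletion (adjusted p = 9.55e-05). In enp1 the call was lost in the compared groups alone (0.95, adjusted p = 0.0712), without control replicate 2 (0.62, adjusted p = 0.12) and without enp1 replicate 1 (0.46, adjusted p = 0.168).

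U6 in oligo d(T) RNA also rose in enp1, but not in csl4 or srm1. It had 2.52, 2.78 and 3.29 CPM in csl4, 5.82 and 5.81 in enp1, 1.01 and 1.04 in srm1, and 3.08, 2.90 and 4.05 in control. The enp1 libraries were above control and the srm1 libraries below it, and csl4 overlapped it. U6 rose in enp1 (log2 fold change 0.80 ± 0.24, adjusted p = 0.0143; 0.0686 or 0.0672 with either enp1 library left out), fell in srm1 (-1.70 ± 0.26, adjusted p = 0.00033) and was not called in csl4 (-0.22 ± 0.22, adjusted p = 0.367).

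U2 and U1 made up most snRNA counts. U2 in oligo d(T) RNA had 170, 149 and 144 CPM in csl4, 175 and 181 in enp1, 93.5 and 86.8 in srm1, and 55.01, 45.6 and 44.5 in control. All mutant libraries were above control, with log2 fold changes of 1.67 ± 0.09 in csl4 (adjusted p = 4.92e-07), 1.87 ± 0.10 in enp1 (adjusted p = 3.43e-07) and 0.89 ± 0.10 in srm1 (adjusted p = 4.72e-05). In ribo-depleted RNA U2 had 12310, 12445 and 12013 CPM in csl4, 8252 and 8073 in enp1, 23027 and 22646 in srm1, 12608 and 13370 in dis3, 15937 and 16166 in the rrp6 deletion, and 17745 and 18290 in control. Only the srm1 libraries were above control. U2 fell by 0.56 in csl4, 1.14 in enp1 and 0.47 in dis3 on the log2 scale, and rose by 0.34 in srm1. The calls in csl4 (-0.07, adjusted p = 0.0598) and dis3 (-0.05, adjusted p = 0.156) were lost with scaling on ORFs. In the rrp6 deletion U2 was called lower (-0.17), was not called with DESeq2, RLE scaling or the compared groups alone (adjusted p = 0.0589 to 0.131), and turned to a call in the higher direction when scaled on ORFs (0.15, adjusted p = 0.00247).

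U1 in oligo d(T) RNA went 2 ways. It had 54.5, 60.6 and 64.2 CPM in csl4, 22.1 and 19.2 in enp1, 15.2 and 10.9 in srm1, and 34.3, 33.4 and 33.97 in control. The csl4 libraries were above control (log2 fold change 0.82 ± 0.12, adjusted p = 0.00029), and those of enp1 (-0.72 ± 0.14, adjusted p = 0.00147) and srm1 (-1.38 ± 0.14, adjusted p = 2.77e-05) below it. In ribo-depleted RNA U1 had 5992, 5750 and 5883 CPM in csl4, 4960 and 4559 in enp1, 9434 and 9543 in srm1, 4638 and 4796 in dis3, 7264 and 6858 in the rrp6 deletion, and 7873 and 8579 in control. As with U2, srm1 alone was above control. U1 fell by 0.79 in enp1 and 0.80 in dis3 and rose by 0.21 in srm1. It was also called lower in csl4 (-0.49) and the rrp6 deletion (-0.22), where with scaling on ORFs it stood at 0.00 and 0.09, neither called. The call in the rrp6 deletion was also lost with DESeq2 (adjusted p = 0.0637), RLE scaling (0.0884) and the compared groups alone (0.102). NUT1342, which shares most of U1, rose in the same RNA by 1.38 ± 0.05 in csl4, 0.79 ± 0.05 in enp1, 0.17 ± 0.05 in srm1, 1.49 ± 0.05 in the rrp6 deletion and 1.29 ± 0.05 in dis3. Whether the 2 features share reads depends on the strand of NUT1342 and on how strand was treated in counting, neither of which is given in the sources used here.

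U4 was the scarcest member in oligo d(T) RNA, with 14.5, 15.7 and 20.6 counts in csl4, 17.7 and 0 in enp1, 0 and 0 in srm1, and 0, 0 and 2.09 in control. Relative to depth the csl4 libraries, at 0.629, 0.796 and 1.01 CPM, were all above the others, of which enp1 replicate 1 was next at 0.508 CPM. No change against control was called, except for csl4 in the compared groups alone (adjusted p = 0.0118). In ribo-depleted RNA U4 had 13.3, 10.3 and 11.2 CPM in csl4, 9.90 and 9.53 in enp1, 9.15 and 11.7 in srm1, 11.5 and 7.68 in dis3, 16.8 and 16.8 in the rrp6 deletion, and 15.3 and 15.99 in control. It was called lower in enp1 (-0.69), srm1 (-0.59) and dis3 (-0.71), and was not called in csl4 (-0.43 ± 0.18, adjusted p = 0.0557) or the rrp6 deletion (0.10 ± 0.20, adjusted p = 0.693). The calls in enp1 (-0.39), srm1 (-0.25) and dis3 (-0.29) were lost with scaling on ORFs. In srm1 the call was also lost with RLE scaling (adjusted p = 0.0549) and without any 1 of the 4 libraries (0.0509 to 0.147), in dis3 in the compared groups alone (0.119) and without dis3 replicate 2 (0.0769), and in enp1 without enp1 replicate 2 (0.0569). NUT0965, which overlaps U4, was lower in srm1 (-1.37 ± 0.18) and higher in dis3 (1.11 ± 0.17) and the rrp6 deletion (1.92 ± 0.17). 5F-75, which covers all of U4, averaged 7.09 CPM in ribo-depleted csl4, 5.45 in enp1 and 4.50 in srm1. It averaged 9.56 CPM in dis3, 12.9 in the rrp6 deletion and 7.84 in control. Whether U4 shares reads with these features depends on strand, as for U1 and NUT1342, and was not tested.

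**Figure D4:**
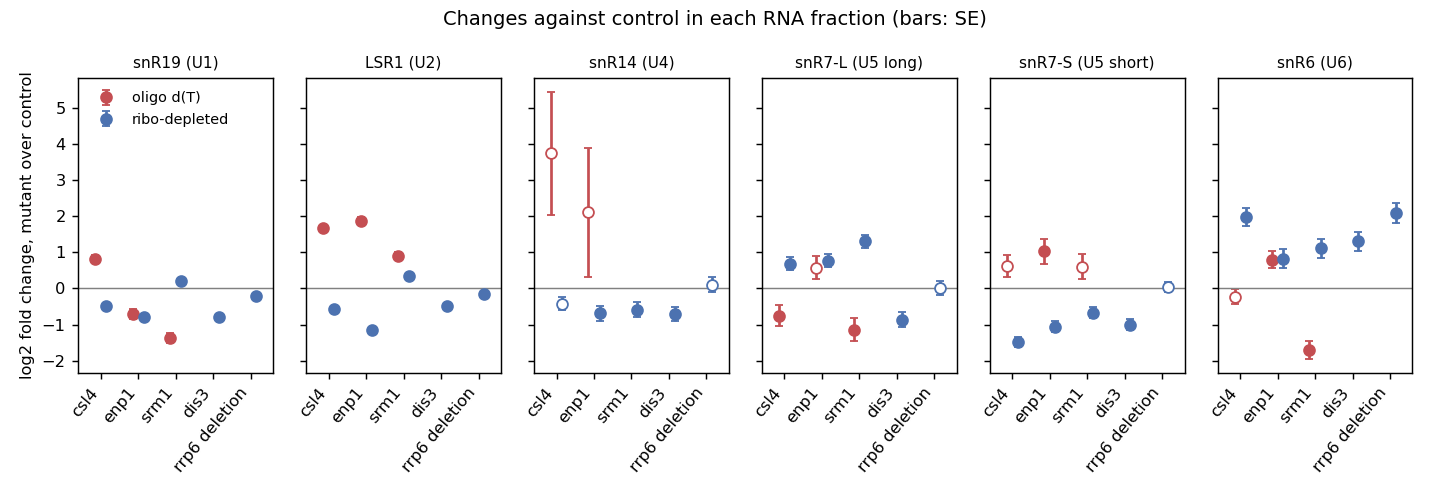
Log2 fold change of each snRNA, mutant over control, with SE, in oligo d(T) (red) and ribo-depleted (blue) RNA; filled points were called, and U4 of srm1 in oligo d(T) RNA, at 0 counts, is left out. U2 rises in oligo d(T) RNA of all 3 mutants, and the U5 forms move in opposite directions in ribo-depleted csl4, enp1 and srm1.

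In oligo d(T) RNA the members called were 3 in csl4, 4 in enp1 and 4 in srm1, where 77.8%, 76.4% and 77% of all features tested were called. In ribo-depleted RNA they were 5 in csl4, 6 in enp1, 6 in srm1, 3 in the rrp6 deletion and 6 in dis3, against 76.5%, 71.8%, 76.4%, 66.1% and 68.8% of features. These counts are near the background, so that direction and size tell more than the number of calls. Scaling on ORFs in place of all features moved the median of all features by 0.14 to 0.32 in oligo d(T) RNA, by 0.23 to 0.44 in ribo-depleted RNA and by 0.15 to 0.19 in 3′ tags. The share of calls that were higher moved to 63.94% in ribo-depleted csl4, 61.31% in enp1, 62.46% in srm1, 64.94% in the rrp6 deletion and 65.93% in dis3, against 46.32%, 48.50%, 51.62%, 46.16% and 43.63% with scaling on all features. The differences of U1 and U2 in csl4 and the rrp6 deletion were of about the size of the shift. The rise of U6 in csl4 and the rrp6 deletion and the fall of short U5 in csl4 and enp1 were larger than it.

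Recovery with oligo d(T) was low for all snRNAs, except for U6 in enp1 and control. Oligo d(T) over ribo-depleted RNA gave log2 ratios in control of -7.89 ± 0.11 for U1, -8.50 ± 0.09 for U2, -7.99 ± 0.97 for U4, -3.84 ± 0.21 for long U5, -9.25 ± 0.21 for short U5 and 0.27 ± 0.23 for U6. All but U6 were called (edgeR, adjusted p = 4.03e-06 or lower). The ratio of long U5 was above that of short U5 in control, which is the difference in the share of the long form seen from the other side. The comparison called 6 members in csl4, 5 in enp1, 6 in srm1 and 5 in control, where 62.2%, 51.9%, 53.4% and 57.4% of features were called. The member not called in enp1 and control was U6. It was called lower in csl4 (-1.94 ± 0.21; edgeR, adjusted p = 5.53e-07) and srm1 (-2.59 ± 0.26; edgeR, adjusted p = 3.28e-07). The U6 ratio in control rests on 38 and 23 counts in ribo-depleted RNA, and how well U6 entered those libraries was not tested. The fractions were prepared differently, so selection and preparation cannot be told apart.

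The interaction asks whether a mutant changed an snRNA differently in the fractions. It called 6 members in csl4, 2 in enp1 and 4 in srm1, where 54.8%, 53% and 50.2% of features were called, and DESeq2 called 6, 3 and 5. U2 moved towards oligo d(T) RNA in all 3 mutants, by 2.21 ± 0.10 in csl4, 3.00 ± 0.11 in enp1 and 0.49 ± 0.11 in srm1 on the log2 scale. Short U5 did so in csl4 (2.07 ± 0.51) and enp1 (2.02 ± 0.48), and U4 in csl4 (4.18 ± 1.22). The U4 value rests on control oligo d(T) libraries with 0, 0 and 2.09 counts. With all groups in the fit, the oligo d(T) change of U4 in csl4 was itself not called (edgeR, adjusted p = 0.0787). U6 moved the other way in csl4 (-2.21 ± 0.31) and srm1 (-2.86 ± 0.35), as did long U5 (-1.44 ± 0.31 in csl4 and -2.49 ± 0.34 in srm1). U1 moved towards oligo d(T) RNA in csl4 (1.29 ± 0.12) and away from it in srm1 (-1.64 ± 0.15).

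**Figure D5:**
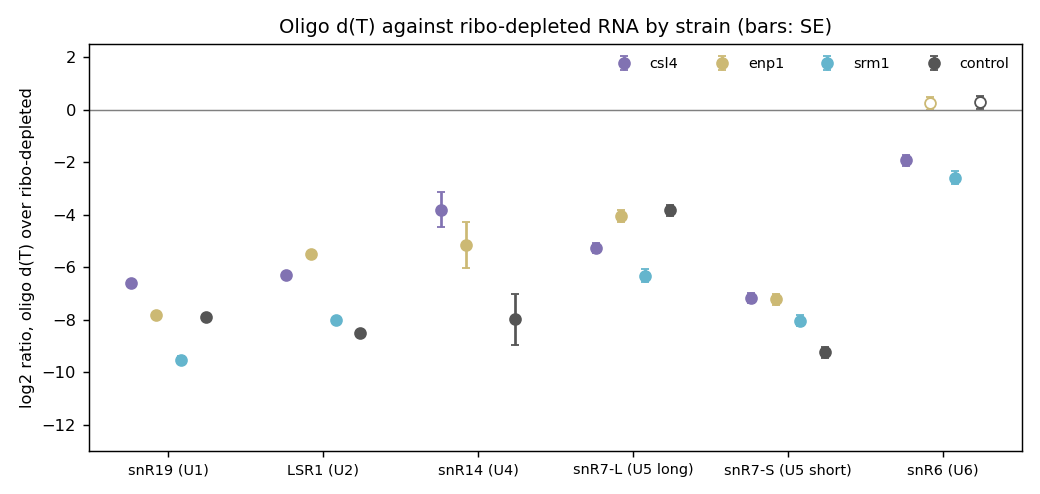
Log2 ratio of oligo d(T) over ribo-depleted RNA for each snRNA in csl4, enp1, srm1 and control, with SE; filled points were called, and U4 of srm1, at 0 counts in oligo d(T) RNA, is left out. U2 and short U5 lie lowest in control, and U6 lies near 0 in enp1 and control.

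Genes of the proteins that bind or process the snRNAs are read here against all features tested in ribo-depleted RNA, of which 41.1% were called lower in csl4, 37.0% in enp1, 37.0% in srm1, 35.6% in the rrp6 deletion and 38.8% in dis3, and 35.4%, 34.8%, 39.4%, 30.5% and 30.0% higher. With scaling on ORFs 27.7%, 27.8%, 28.9%, 23.4% and 23.1% were called lower. In oligo d(T) RNA 39.6% of features were called lower in csl4, 38.6% in enp1 and 37.7% in srm1. With scaling on ORFs these oligo d(T) shares were 29.9%, 31.4% and 34.8%. All 7 genes of the Lsm2-8 ring, which binds the end of U6, fell in csl4, enp1 and srm1 in both fractions, and 4 of 7 fell in the dis3 and rrp6 deletion strains. With scaling on ORFs none of them rose, and the falls called in ribo-depleted RNA were 4 of 7 in csl4, 4 in enp1, 6 in srm1, 1 in the rrp6 deletion and 4 in dis3. Their median log2 fold change in ribo-depleted RNA was -0.86 in csl4, -0.83 in enp1 and -1.09 in srm1, against medians of -0.03, 0.00 and 0.04 over all features. LSM4 fell by 1.53 in csl4, 1.39 in enp1, 1.19 in srm1, 0.43 in the rrp6 deletion and 0.82 in dis3, and the call in the rrp6 deletion was lost with scaling on ORFs (-0.12, adjusted p = 0.178). LHP1, the La protein, fell by 1.53 in csl4, 1.24 in enp1, 1.65 in srm1 and 0.87 in dis3. Of 7 Sm genes 5 fell in ribo-depleted csl4, 4 in enp1, 2 in srm1 and 5 in dis3, against 2, 3, 1 and 1 with scaling on ORFs, and several of these shares lie near those of all features. SMD3, 1 of the Sm proteins, fell by 0.64 in enp1, 0.88 in srm1 and 0.69 in dis3.

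Genes of particle proteins were mixed, and the balance of their rises and falls turned with the scaling. These lists, and those of processing and of U6 transcription below, are read against the same shares of all features. With scaling on ORFs the shares called higher were 49.1% in csl4, 44.1% in enp1, 48.1% in srm1, 43.3% in the rrp6 deletion and 44.8% in dis3. Of 9 U1 protein genes tested in ribo-depleted RNA 2 rose and 5 fell in csl4, and 4 rose and 5 fell in srm1, where MUD1, a U1 protein, rose by 3.65 ± 0.04. With scaling on ORFs 4 rose and 3 fell in csl4, and 4 rose and 4 fell in srm1. Of 11 U2 protein genes 3 rose and 4 fell in csl4, against 8 and 1 with scaling on ORFs, and HSH49, a U2 protein, fell by 1.55 in enp1 and 1.84 in srm1. Of 17 genes of the U4, U5 and U6 particles 4 rose and 9 fell in csl4, against 8 and 4 with scaling on ORFs, and SNU13, which binds U4 and box C/D snoRNAs, fell by 1.11 in csl4, 0.77 in enp1, 1.83 in srm1 and 0.52 in dis3. Of 32 genes of snRNA 3′ end processing and decay 22 fell in csl4, 19 in enp1, 18 in srm1, 8 in the rrp6 deletion and 20 in dis3, and 5, 8, 8, 12 and 5 rose. With scaling on ORFs 15, 13, 13, 4 and 7 of them fell and 12, 11, 15, 22 and 10 rose. Of 12 genes for transcription of U6, 11 fell in csl4, 8 in enp1, 4 in srm1, 7 in the rrp6 deletion and 10 in dis3, and 1, 2, 7, 1 and 1 rose. With scaling on ORFs 7, 6, 3, 6 and 6 of them fell and 4, 5, 7, 4 and 3 rose.

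The features whose log2 CPM went most like an snRNA over the 13 ribo-depleted libraries were the snoRNA snR8 for long U5 (Pearson r = 0.96), SKI6 for short U5 (0.98), URE2 for U1 (0.99), CUP1-1 for U2 (0.98), SGT2 for U4 (0.90) and NUT0692 for U6 (0.95), each the highest of 7307 candidates. Among the snRNAs U1 and U2 went together there (r = 0.90), and the U5 forms did not (r = -0.20). These values share libraries and depth and are descriptions.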

How the data were processed

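Each of 3 deposited tables holds the authors' estimated counts, 1 column a library. The submitters' processing notes name Trimmomatic (0.39, and 0.38 with the 3′ tags), Salmon 0.12.0 and the sacCer3 (R64) build. The notes do not say how Salmon treated strand. Per the labels' protocols, the first 2 tables are stranded libraries read as pairs of 50 bases and the 3′ tags single reads of 90 bases. Salmon divides reads that fit both U5 forms by likelihood, so that the short form, with no sequence of its own, is known only through that estimate.

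After rounding to whole numbers, features were tested with edgeR 4.0.16 (R 4.3.3), by 2-sided quasi-likelihood F-tests with TMM scaling and filterByExpr, all groups of a table in 1 fit, and Benjamini-Hochberg adjustment over all features tested: 10464 with oligo d(T), 10564 after ribosomal depletion, 10790 over both and 6369 in 3′ tags. All 6 members passed each filter. A call is an adjusted p under 0.05. CPM are deposited counts divided by TMM-scaled library size, in the usual unit. SE belong to fold changes and SD to levels. The U5 ratio is log2 of long over short after 0.5 was added to each, with exact 2-sided permutation tests. Intervals and the floor of 3 counts cover counting error only. The U5 ratio was not tested in 3′ tags, where control held under 10 counts of each form in some libraries. Comparisons in a table share control libraries.

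The members and gene lists were chosen with earlier results of these data known. Named genes were the members, features that overlap them, the mutated genes, the 3 of each list with the smallest adjusted p (mean CPM 10 or more), and the 3 features most like each member. The text takes from these the genes that bear on the snRNAs, and the strain background list was named whole or in part after its values were seen. Features were matched to lists by exact symbol. Alternatives were RLE scaling, scaling on ORFs, DESeq2 1.42.0, no filter, a replicate block, the compared groups alone and leaving out each replicate. The fits were tested on simulated counts with a fixed spread and 200 changed features, as many rises as falls. Of the 2-fold changes they called 94.0% in oligo d(T), 92.0% in ribo-depleted, 99.0% over both and 64.1% in 3′ tags. Far more features were called in most mutant comparisons of the data, so the simulation does not check the scaling.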

Additional observations from a re-analysis of the deposited data

Results flagged for a closer look

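In csl4 the change in oligo d(T) RNA differed from that in ribo-depleted RNA for all 6 members, by log2 values of 2.21 for LSR1 (U2), 4.18 for snR14 (U4), 1.29 for snR19 (U1), -2.21 for snR6 (U6), -1.44 for snR7-L and 2.07 for snR7-S. In enp1 it differed for LSR1 by 3.00 and for snR7-S by 2.02. In srm1 it differed for LSR1 by 0.49, snR19 by -1.64, snR6 by -2.86 and snR7-L by -2.49. Each passed edgeR's interaction test, which called 54.8%, 53% and 50.2% of all features tested in csl4, enp1 and srm1. The U4 value rests on control oligo d(T) libraries with 0, 0 and 2.09 counts. The difference from control in the log2 ratio of long to short U5 differed between the fractions by -3.61 in csl4 and -3.80 in srm1. The exact permutation tests (p = 0.005 and 0.0167, each the smallest possible) were added after these directions were seen. They are tests of no strain difference in either fraction. The cause of these differences was not tested. No group held 4 or more libraries, so no library could be checked against its group for distance.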

How the results depend on the processing

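TMM scaling was the main choice. Scaling on ORFs gave 3 members called in ribo-depleted csl4 and 3 in dis3, against 5 and 6. It turned the sign of U1 in csl4 (0.00395) and the rrp6 deletion (0.0928) and of U2 in the rrp6 deletion (0.15). In the rrp6 deletion DESeq2, RLE scaling and the compared groups alone each called 1 member, against 3. In enp1 tags with the Pab1-GFP vector the compared groups alone called 1, against 3. Leaving out 1 library gave 2 to 4 members in oligo d(T) enp1 and 1 to 3, against 4, in csl4 against enp1 with the empty vector. It moved the U5 ratio between -0.0129 and 0.29 in dis3 and between -0.16 and 0.0716 in the rrp6 deletion. For srm1 over both fractions the range was -0.18 to 0.33, and for its difference between fractions -4.30 to -3.30, where p was 0.0556 without any 1 of the 3 control oligo d(T) libraries, the smallest then possible. The causes were not tested. Replicate numbers did not pair the libraries, since same-numbered deviations correlated above 0.1 in 0 of 13, 0 of 30 and 5 of 45 pairs. With the replicate block, csl4 against enp1 with the empty vector called 2 members, against 4, and long U5 in oligo d(T) csl4 (-0.78, adjusted p = 0.0595) and short U5 in enp1 (1.01, adjusted p = 0.0789) were no longer called. The vector's count of all features called was 25, 26 and 424 in control, csl4 and enp1 with edgeR, 112, 265 and 819 with DESeq2, and 101, 2 and 76 in the compared groups alone. Without 1 library it was 7 to 14, 4 to 211 and 210 to 282 where it moved most. enp1 tags with the Pab1-GFP vector called 850 features, and 458 in the compared groups alone. With 2 or 3 libraries a group, single exact tests of the U5 ratio cannot pass the threshold, and U4 and U6 rest on few counts.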
